A study of Mus musculus with 8 samples.

Results

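Endothelial and blood-brain barrier genes were examined in whole-brain bulk RNA-seq as a set of 10 genes taken by symbol from the 24343 genes of the deposited table. The genes were Cldn5, Slc2a1, Pecam1, Flt1, Abcb1a, Mfsd2a, Ly6c1, Slco1a4, Tek and Cdh5. RNA came from the whole brains of 3 C57BL/6NCrl mice of 56–62 days of age, and 8 libraries were made, of which mice 1 and 2 gave 3 each and mouse 3 gave 2. All mice were of one condition, kept on a light and dark cycle with free access to food and water, with no treatment or altered allele named, and the labels state neither their sex nor what the library numbers stand for. Libraries of a mouse are repeats of that mouse, so errors between mice have n = 3, and tests between mice describe the spread among these libraries of these animals only. Levels are given as FPKM, sequenced fragments scaled to transcript length and library size, summed over the transcripts of a gene.

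Brain capillary endothelial cells form the blood-brain barrier, a cell layer that seals the vessel wall with tight junctions and suppresses transfer of material across the cell. Nutrients cross it through dedicated carriers such as the glucose transporter, whereas efflux pumps return many lipophilic compounds to the blood. Endothelial identity is kept by receptors for vascular growth factors and angiopoietins, and signals from pericytes, astrocytes and neurons maintain the barrier. The question addressed was the level of each barrier gene in whole brain and its spread between the libraries of these mice.

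All 10 genes were detected in all 8 libraries, and all passed the minimum mean of 1 FPKM used for the tests. Their levels spanned from 38.4 ± 14.3 FPKM (SD, n = 3 mice) for Ly6c1 down to 3.46 ± 0.235 FPKM for Tek. Ly6c1 stood above 93.0% of all genes in the table and Tek above 58.5%. In bulk tissue the level of a gene depends on how many cells make it, endothelial or other, and on its RNA per cell. These cannot be told apart here. The number of reads behind each value is unknown, because the values used here are FPKM and coverage (the mean number of reads over each base of a transcript), not counts. The coverage of Tek, the lowest among the 10 genes, was between 5.75 and 8.74 per base, whereas that of Ly6c1 was between 31.6 and 111.

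Libraries held between 1.31 and 2.02 gigabases read on transcripts, estimated as coverage multiplied by length, with library 1 of mouse 2 the lowest. The 2 libraries of mouse 3 stood apart from the other 6. Their FPKM summed to 384885 and 409889 over all genes, above the range of 295541 to 345572 in the other libraries. Between mice 3310 of 13001 genes tested differed (25.5%, adjusted p below 0.05 in the moderated F-test of limma, fitted to log2 of FPKM + 1 and adjusted after Benjamini and Hochberg). Differences between mouse 3 and the mean of mice 1 and 2 also followed transcript length, with a median log2 difference of 0.41 among the 2601 genes with the shortest transcripts and −0.21 among the 2599 with the longest, when genes were cut by length into 5 parts. Each call is therefore given with the outcome after the trend with length was removed from each library, and, for the 10 genes, without single libraries where that changes it. Every adjusted p is that of the F-test for any difference among the 3 mice, and the difference of mouse 3 from the mean of mice 1 and 2 is given as a description of size and direction that was not itself tested.

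Ly6c1 encodes a small surface protein anchored by a lipid, and it marks brain endothelial cells as well as some blood monocytes. It lies at chr15:75044018-75048837 (mm10, the build named in the labels) on the minus strand. The FPKM of Ly6c1 were 29.9, 35.6 and 31.5 in mouse 1, 20.1, 32.0 and 32.4 in mouse 2 and 52.6 and 57.0 in mouse 3. Both libraries of mouse 3 lay above the other 6, and library 1 of mouse 2 was the lowest. The log2 difference between mouse 3 and the mean of mice 1 and 2 was 0.85, higher in 2 of 2 libraries, and Ly6c1 differed among the mice (adjusted p = 0.0206 by limma's F-test over all genes tested). With the trend of transcript length removed the difference was 0.35 and the call was lost (adjusted p = 0.0752). The call was also lost without library 1 of mouse 3 (difference of 0.91, adjusted p = 0.0607) and without library 2 of mouse 3 (difference of 0.80, adjusted p = 0.171).

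Part of the sequence of Ly6c1 is shared with Ly6c2, a neighbouring relative best known from monocytes, so reads can be divided between these genes with uncertainty. The first 150 bases of both coding sequences, read from GENCODE M21 transcripts (GRCm38) as the longest open reading frame, are shown because they hold 6 of the 9 base differences between the 2 coding sequences. Capitals mark the bases that differ.
Ly6c1 coding start: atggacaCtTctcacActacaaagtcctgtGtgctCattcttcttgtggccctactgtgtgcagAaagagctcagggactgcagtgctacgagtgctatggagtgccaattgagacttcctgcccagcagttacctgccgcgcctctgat
Ly6c2 coding start: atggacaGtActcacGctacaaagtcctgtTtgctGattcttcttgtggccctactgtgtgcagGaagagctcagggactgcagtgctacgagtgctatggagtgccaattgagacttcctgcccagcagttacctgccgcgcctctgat
Both coding sequences have 396 bases and are identical at 97.7% of them, with a longest identical run of 188 bases. Over the whole main transcript of Ly6c1, 252 of 795 windows of 50 bases (31.7%) occur unchanged in a Ly6c2 transcript. A further 1 of its relatives, Ly6a, listed at 22.2 ± 7.55 FPKM, shares 40 of the 795 windows (5.03%). The level of Ly6c2 was 4.33 ± 2.18 FPKM, with 3.51, 2.68 and 6.80 FPKM as the means of mice 1, 2 and 3. Ly6c2 also differed among the mice (adjusted p = 0.00785 by limma) with a log2 difference of mouse 3 of 0.94, and with the length trend removed it still differed (0.42, adjusted p = 0.00788).

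**Figure D1:**
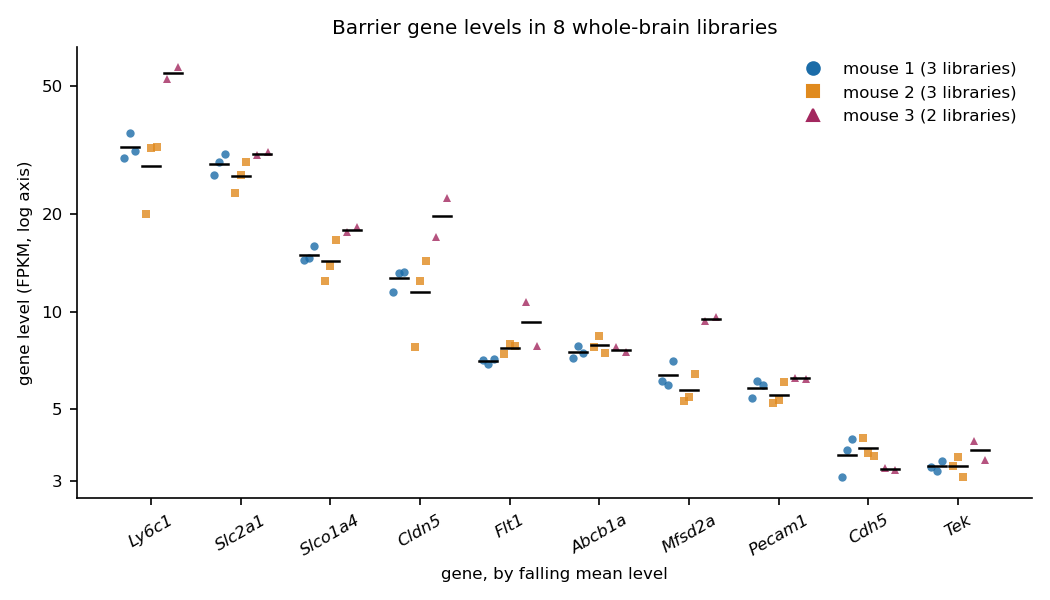
Level of each of the 10 barrier genes in FPKM (log axis) in the 8 libraries, by mouse. Points are single libraries and black lines are the means of each mouse. Both libraries of mouse 3 lie above the other 6 for Ly6c1, Slco1a4, Cldn5, Mfsd2a and Pecam1, and lie within their range for Abcb1a and Cdh5.

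Among the junction genes, Cldn5 encodes claudin-5, the main claudin of the tight junctions that seal brain capillaries. Cldn5 lies at chr16:18776847-18778262 on the plus strand, and a single transcript of 1416 bases was listed. Its levels were 11.5, 13.2 and 13.3 FPKM in mouse 1, 7.76, 12.4 and 14.4 FPKM in mouse 2 and 17.1 and 22.5 FPKM in mouse 3. Both libraries of mouse 3 were above the other 6, but library 1 of mouse 2 lay far below its companions. The log2 difference of mouse 3 was 0.68, and Cldn5 did not pass the F-test among the mice (adjusted p = 0.0703 by limma). Cldn5 passed it without library 1 of mouse 2 (difference of 0.56, adjusted p = 0.0277) and without library 3 of mouse 2 (difference of 0.76, adjusted p = 0.0401), and did not with the length trend removed (difference of 0.37, adjusted p = 0.164).

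Cdh5 encodes VE-cadherin, which joins endothelial cells at adherens junctions, and lies at chr8:104101625-104144502 on the plus strand. Cdh5 read 3.07, 3.73 and 4.02 FPKM in mouse 1, 4.07, 3.66 and 3.58 FPKM in mouse 2 and 3.27 and 3.23 FPKM in mouse 3. The mice overlapped, with a log2 difference of mouse 3 of −0.14 (F-test among the mice, adjusted p = 0.457 by limma), and −0.07 with the length trend removed. Cdh5 was thus below the mean of the other mice in mouse 3 where Cldn5 was above it, although neither gene passed the test.

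Pecam1 encodes CD31, an adhesion protein of endothelial cell contacts that is also made by platelets and some leukocytes. Pecam1 lies at chr11:106654213-106715281 on the minus strand. Its level was 5.85 ± 0.342 FPKM, with 5.40, 6.09 and 5.91 FPKM in mouse 1, 5.21, 5.32 and 6.08 FPKM in mouse 2 and 6.23 and 6.20 FPKM in mouse 3. Both values of mouse 3 exceeded the other 6 by a narrow margin. The log2 difference of mouse 3 was 0.12, and 0.14 with the length trend removed, and Pecam1 did not pass the F-test (adjusted p = 0.449 by limma).

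Among the transporters, Slc2a1 encodes GLUT1, the carrier that brings glucose across the barrier, and it is also made by astrocytes. Slc2a1 lies at chr4:119108745-119137329 on the plus strand, and its exons overlap those of Gm12868 on the other strand. Its levels were 26.5, 29.0 and 30.7 FPKM in mouse 1, 23.4, 26.4 and 29.1 FPKM in mouse 2 and 30.5 and 31.1 FPKM in mouse 3. All 8 values lay within a 1.33-fold range and the mice overlapped (F-test, adjusted p = 0.273 by limma), with a log2 difference of mouse 3 of 0.16 both before and after removal of the length trend.

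Mfsd2a encodes a carrier of lysophospholipids with omega-3 fatty acids, and it is known to keep vesicle traffic across brain endothelium low. Mfsd2a lies at chr4:122946851-122961188 on the minus strand. Its levels were 6.11, 5.92 and 7.03 FPKM in mouse 1, 5.31, 5.44 and 6.42 FPKM in mouse 2 and 9.36 and 9.65 FPKM in mouse 3. Both libraries of mouse 3 lay above the other 6, whereas mice 1 and 2 overlapped, and the gap between mouse 3 and the highest other library was wider than the spread within any mouse. Mfsd2a differed among the mice (F-test, adjusted p = 0.0111 by limma) with a log2 difference of mouse 3 of 0.58, and still differed with the length trend removed (0.52, adjusted p = 0.00936). The call was lost without library 2 of mouse 3 (difference of 0.56, adjusted p = 0.0929) and when each library was scaled to the same total (TPM, transcripts scaled to a common library sum, log2 difference of 0.34, adjusted p = 0.0548).

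Slco1a4 encodes an organic anion transporting polypeptide of brain endothelium, at chr6:141805440-141856171 on the minus strand. The FPKM of Slco1a4 were 14.5, 14.6 and 15.9 in mouse 1, 12.4, 13.9 and 16.7 in mouse 2 and 17.6 and 18.3 in mouse 3. Mouse 3 lay above the other 6 libraries, with a log2 difference of 0.28, and Slco1a4 did not pass the F-test (adjusted p = 0.154 by limma). It passed without library 3 of mouse 2 (difference of 0.33, adjusted p = 0.0496) and did not with the length trend removed (difference of 0.34, adjusted p = 0.0636).

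Abcb1a encodes P-glycoprotein, the efflux pump that returns many drugs to the blood, and lies at chr5:8660092-8748570 on the plus strand. Its exons overlap those of Gm42686 on the other strand. Abcb1a read 7.20, 7.82 and 7.47 FPKM in mouse 1, 7.80, 8.41 and 7.45 FPKM in mouse 2 and 7.78 and 7.49 FPKM in mouse 3. Its coefficient of variation between mice was 2.58%, and 4.65% of the genes tested had a lower one. The log2 difference of mouse 3 was −0.01, and 0.13 with the length trend removed, and Abcb1a did not pass the F-test (adjusted p = 0.772 by limma). Reads of Abcb1a can also match its relative Abcb1b, which shares 768 of 4948 windows of 50 bases (15.5%) of the Abcb1a transcript in GENCODE M21. Its relative Abcb4 shares 127 of these windows (2.57%). Abcb1b was listed at 1.08 ± 0.192 FPKM.

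Flt1 encodes VEGFR1, a receptor for VEGF-A, VEGF-B and placental growth factor that limits signalling through VEGFR2. Flt1 lies at chr5:147562196-147725988 on the minus strand, and its one listed transcript of 6280 bases is the longest of the set. Its levels were 7.10, 6.90 and 7.15 FPKM in mouse 1, 7.41, 7.94 and 7.81 FPKM in mouse 2 and 10.7 and 7.82 FPKM in mouse 3. Library 1 of mouse 3 stood alone, whereas library 2 of mouse 3 lay within the range of mouse 2. The log2 difference of mouse 3 was 0.28 and Flt1 did not pass the F-test (adjusted p = 0.132 by limma), whereas with the length trend removed it did (difference of 0.47, adjusted p = 0.0102).

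Tek encodes TIE2, the receptor of the angiopoietins, at chr4:94739289-94874976 on the plus strand. Tek read 3.30, 3.21 and 3.46 FPKM in mouse 1, 3.33, 3.55 and 3.08 FPKM in mouse 2 and 3.98 and 3.47 FPKM in mouse 3. The mice overlapped, with a log2 difference of mouse 3 of 0.13, and 0.25 with the length trend removed, and Tek did not pass the F-test (adjusted p = 0.436 by limma).

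By level the 10 genes fell in the order Ly6c1, Slc2a1, Slco1a4, Cldn5, Flt1, Abcb1a, Mfsd2a, Pecam1, Cdh5 and Tek. Neighbours whose mouse means did not overlap were Slc2a1 over Slco1a4 (1.82-fold), Cldn5 over Flt1 (1.83-fold) and Pecam1 over Cdh5 (1.65-fold), each higher in 8 of 8 libraries. The other 6 neighbouring pairs overlapped and were not told apart. Ly6c1 exceeded Slc2a1 in 7 libraries and Flt1 exceeded Abcb1a in 3, and the order of Ly6c1 and Slc2a1 was turned in library 1 of mouse 2. Ly6c1 made up 28.1% ± 4.84 of the summed level of the 10 genes, Slc2a1 21.8% ± 2.51 and Slco1a4 11.9% ± 0.814 (SD, n = 3 mice).

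Between the mice, 2 of the 10 genes differed (Mfsd2a and Ly6c1), against 25.5% of all genes tested. Both were higher in mouse 3, beside 1835 of the 3310 genes that differed among all genes tested. Those 1835 genes were 14.1% of all genes tested, beside the 2 of the 10 barrier genes. For Ly6c1, Cldn5, Mfsd2a, Slco1a4 and Pecam1, 5 of the 10 genes, both libraries of mouse 3 lay above the other 6, against 26.5% of all genes tested. The median log2 difference of mouse 3 over the 10 genes was 0.22, beside 0.02 over all genes tested. The summed level of the set was 159 and 167 FPKM in mouse 3 and between 96.8 and 127 FPKM in the other libraries. As a share of all FPKM of a library, the set made up 0.0413% and 0.0407% in mouse 3. In the other libraries that share was between 0.0327% and 0.0391%. Of the excess of 44.6 FPKM in mouse 3 over the mean of mice 1 and 2, Ly6c1 made up 54.9%, Cldn5 17.2% and Mfsd2a 7.77%.

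Transcript length ordered part of these differences. Ly6c1 and Cldn5 fell among the 2601 genes with the shortest transcripts (up to 1573 bases), in which 37.4% of genes differed between mice. Mfsd2a fell in the next part, with a median log2 difference of 0.13. The genes with the longest transcripts, Flt1, Abcb1a and Tek, fell in the part with a median of −0.21, and all 3 lay above that median. After removal of the length trend the median over the 10 genes was 0.29, beside −0.00 over all genes, and 9 of the 10 genes were above 0, the exception being Cdh5. After scaling to TPM, which moved the median of all genes to −0.26, the median over the 10 genes was −0.06 and 4 were above 0, namely Ly6c1, Cldn5, Mfsd2a and Flt1. Of the 10 genes, Abcb1a with −0.30 and Cdh5 with −0.43 lay below the median of all genes under TPM.

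**Figure D2:**
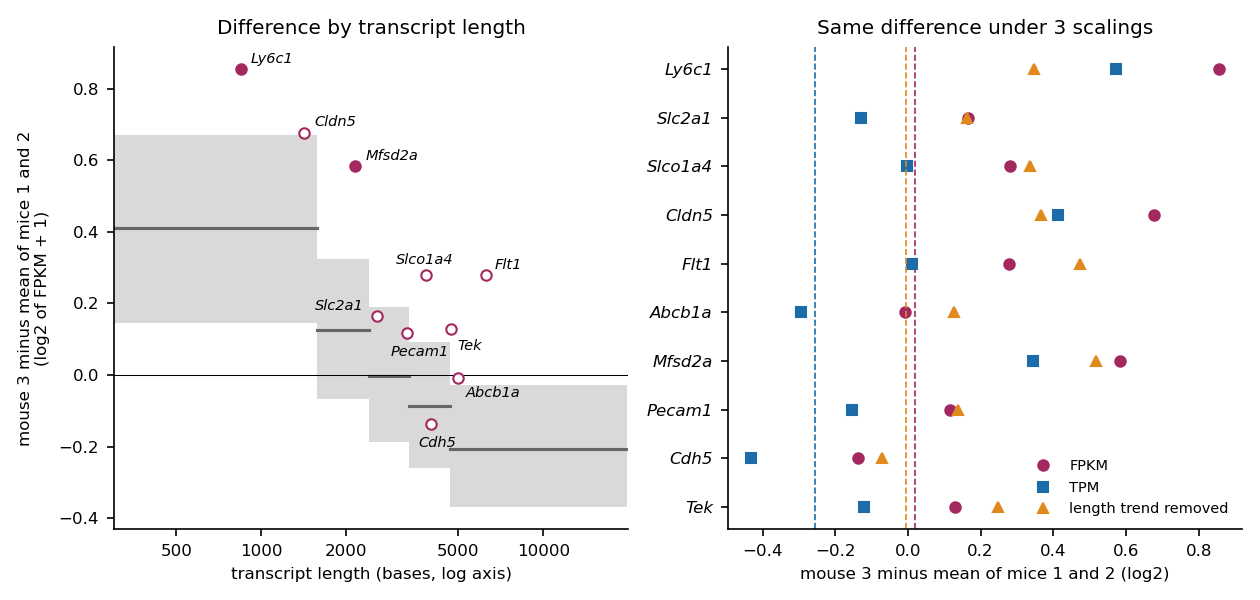
Left, log2 difference of mouse 3 from the mean of mice 1 and 2 against transcript length in bases (log axis from 300 bases), for the 10 barrier genes (filled where the adjusted p of the F-test among the mice was below 0.05) over the median (grey line) and the middle 50% (grey band) of all genes in each of 5 parts by length. Right, the same difference under 3 scalings, with dashed lines at the median of all genes: Ly6c1 moves from 0.85 to 0.57 under TPM and to 0.35 with the length trend removed, and Cdh5 stays below 0 in all 3.

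Markers of other cell types moved with mouse 3 as well. The 5 astrocyte markers summed to 523 to 559 FPKM in mouse 3 and 346 to 368 FPKM in the other libraries, and 5 of 5 differed between mice. The 4 oligodendrocyte markers summed to 3676 to 4561 FPKM against 1902 to 2100 FPKM, with 2 of 4 that differed. Mbp was the highest of them, at 1925 ± 1074 FPKM (SD, n = 3 mice), and the median log2 difference over the 4 markers was 0.41. Blood markers gave 801 to 897 against 530 to 659 FPKM, with 1 of 5 that differed and a median log2 difference of 0.28. The 8 pericyte markers gave 87.6 to 95.9 against 59.7 to 75.6 FPKM, with 1 of 8 that differed. The pericyte sum and the single markers parted, since the median log2 difference over the 8 markers was −0.07. Neuron markers gave 1409 to 1513 against 1634 to 1769 FPKM. No marker was listed at 0 in every library. The ratio of mouse 3 to the mean of mice 1 and 2 was 1.38 for the sum of the 10 barrier genes, 1.53 for astrocytes, 2.04 for oligodendrocytes, 1.38 for blood, 1.30 for pericytes and 0.850 for neurons. The ratios were not scaled to the sum of all FPKM, which was higher in mouse 3 too. The part of these differences in the levels of the barrier genes was not tested.

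Smooth muscle markers summed to 19.8 to 25.4 FPKM in mouse 3 against 17.5 to 19.8 FPKM, leptomeningeal fibroblast markers to 49.4 to 50.1 against 48.3 to 55.4 FPKM, and choroid plexus markers to 435 to 566 against 322 to 552 FPKM. Pituitary markers stayed between 2.12 and 3.17 FPKM in all libraries. The highest genes of these lists were Vtn for pericytes, Acta2 for smooth muscle, Igf2 for fibroblasts, Hba-a1 for blood, Ttr for choroid plexus, Pomc for pituitary, Slc1a3 for astrocytes, Mbp for oligodendrocytes and Snap25 for neurons.

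**Figure D3:**
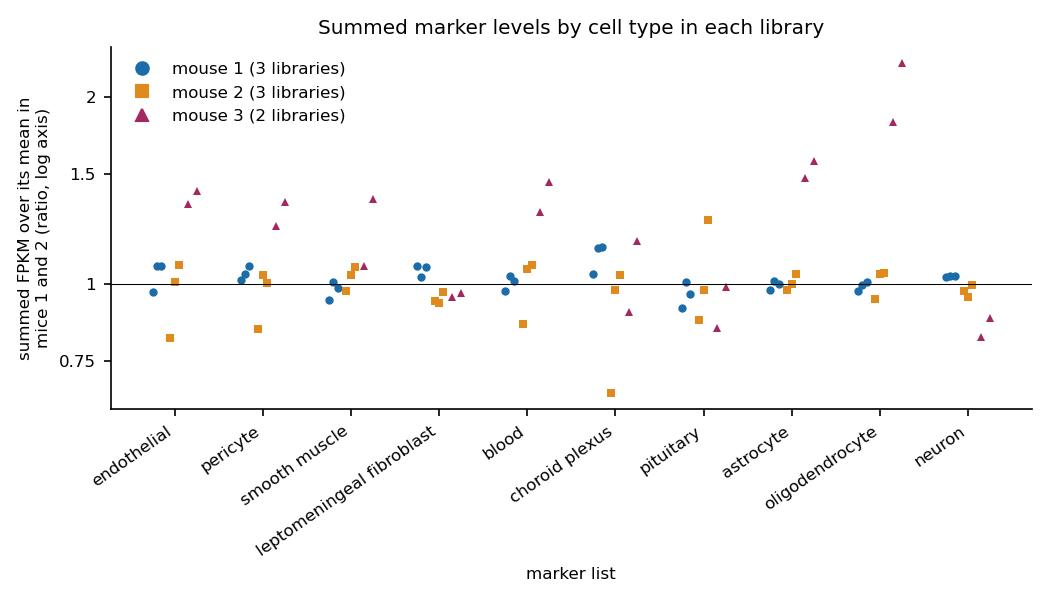
Summed FPKM of 10 marker lists in each library, as a ratio to the mean of mice 1 and 2 (log axis). Points are single libraries. Mouse 3 lies above the other 6 libraries for endothelial, pericyte, blood, astrocyte and oligodendrocyte lists, by a small margin for smooth muscle, and below them for neurons.

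The genes also differed in how closely they moved together over the 8 libraries, which share mice and the shift of mouse 3, so that the following values are descriptions only. Pearson's r between the log2 level of a gene and the mean standardised level of the other 9 was 0.88 for Ly6c1, 0.84 for Mfsd2a, 0.82 for Cldn5 and 0.81 for Slco1a4. It was 0.79 for Slc2a1, 0.75 for Pecam1, 0.60 for Flt1 and 0.55 for Tek. It was −0.09 for Abcb1a and −0.46 for Cdh5. Outside the set, the genes most like the mean of all 10 were F3, which encodes tissue factor, Dapp1, Desi1, Pradc1 and P4ha1, each with r of 0.98 over 8 libraries. F3 and P4ha1 did not pass the test between mice (adjusted p = 0.112 and 0.200 by limma), and Dapp1, Desi1 and Pradc1 did (adjusted p = 0.0296, 0.0373 and 0.0494).

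Promoters of the 4 genes with the highest r are shown because these genes moved together. RefSeq held a promoter entry for 8 of the 10 genes, and for 7 the entry lay within 100 bases of a deposited transcript start. That of Abcb1a lay 93001 bases away and was not used, and Pecam1 and Cdh5 had no entry. Each sequence holds the 250 bases before the start, read 5′ to 3′ on the strand of the gene (GRCm38.p6). Capitals mark the matches found, searched on either strand. The letters searched for the ETS core, bound by a family of endothelial transcription factors, were GGAAGT. Those searched for the core of SOX factors were ACAATG. The motif named TATA box was searched with the letters TATAAA. For the GC box, which SP factors bind, the search used GGGCGG.
Ly6c1, chr15:75048838-75049087, minus strand: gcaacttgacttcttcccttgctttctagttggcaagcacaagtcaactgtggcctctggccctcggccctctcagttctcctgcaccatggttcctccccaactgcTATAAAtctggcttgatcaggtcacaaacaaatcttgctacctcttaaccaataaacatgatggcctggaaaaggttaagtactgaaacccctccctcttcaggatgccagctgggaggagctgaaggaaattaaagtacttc
Mfsd2a, chr4:122961189-122961438, minus strand: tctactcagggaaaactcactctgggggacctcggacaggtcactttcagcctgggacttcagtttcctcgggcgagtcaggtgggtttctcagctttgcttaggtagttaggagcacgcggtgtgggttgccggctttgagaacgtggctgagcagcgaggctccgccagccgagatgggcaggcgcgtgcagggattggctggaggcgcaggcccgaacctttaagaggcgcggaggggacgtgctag
Cldn5, chr16:18776597-18776846, plus strand: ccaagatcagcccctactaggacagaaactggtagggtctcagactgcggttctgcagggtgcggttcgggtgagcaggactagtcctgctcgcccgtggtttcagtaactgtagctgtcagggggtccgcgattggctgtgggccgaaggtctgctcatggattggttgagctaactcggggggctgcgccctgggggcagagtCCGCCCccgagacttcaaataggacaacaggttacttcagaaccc
Slco1a4, chr6:141856221-141856470, minus strand: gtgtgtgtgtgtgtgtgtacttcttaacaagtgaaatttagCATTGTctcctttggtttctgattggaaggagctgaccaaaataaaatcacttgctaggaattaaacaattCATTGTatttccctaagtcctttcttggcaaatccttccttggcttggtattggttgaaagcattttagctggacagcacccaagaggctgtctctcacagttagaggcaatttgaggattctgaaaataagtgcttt
The 4 windows differ in composition, with G or C at 48.4% of bases in Ly6c1, 61.6% in Mfsd2a, 59.6% in Cldn5 and 39.2% in Slco1a4, and 1, 17, 12 and 0 CG pairs. Slco1a4 holds 2 matches to the SOX core, Cldn5 holds 1 match to the GC box, Ly6c1 holds 1 match to the TATA box and Mfsd2a holds none of the 4. Among the 7 promoters read, 1 held the ETS core, 1 the SOX core, 2 the TATA box and 3 the GC box. Of 32536 RefSeq promoter windows of this length, 19.8% held the ETS core, 10.5% the SOX core, 12.3% the TATA box and 33.0% the GC box. These matches are descriptions of the letters only.

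At the level of transcripts, 7 of the genes were listed with 1 transcript each, whereas Ly6c1 had 5, Pecam1 had 4 and Tek had 3. For Ly6c1, NM_010741 held 81.5% ± 3.48 of the FPKM of the gene (SD, n = 3 mice) and was the highest in 8 of 8 libraries, and NM_001252055 held 14.0% ± 3.53. The share of NM_010741 was lowest in library 1 of mouse 2, at 71.1%, and highest in library 3 of mouse 1, at 86.6%. NM_001252058, NM_001252057 and NM_001252056 held 2.72%, 1.22% and 0.573%, and the lower confidence bound that the authors deposited was 0 in 4, 7 and 8 of the 8 libraries.

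For Pecam1 the shares were divided more evenly. NM_001032378 held 42.0% ± 5.73, NM_001305157 30.9% ± 7.30, NM_008816 23.7% ± 12.9 and NM_001305158 3.43% ± 1.26. NM_008816 held 42.6% and 34.3% in mouse 3 and between 10.1% and 22.7% in the other 6 libraries. NM_001032378 was the highest transcript in 5 libraries, NM_001305157 in 2 and NM_008816 in 1. The difference of NM_008816 was not tested, since the shares of transcripts that overlap in sequence are estimates from the same reads.

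For Tek, NM_013690 held 65.8% ± 3.20, NM_001290549 28.8% ± 8.55 and NM_001290551 5.33% ± 6.87. The mouse means hid a wide spread between libraries of a mouse, since the share of NM_013690 was 74.4%, 99.9% and 28.2% in mouse 1. NM_001290551 held 26.2% in library 2 of mouse 3 and 8.67% in library 1 of mouse 2, and was under 0.01 FPKM in the other 6 libraries. The sum over the transcripts of Tek varied by no more than 1.29-fold between libraries.

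**Figure D4:**
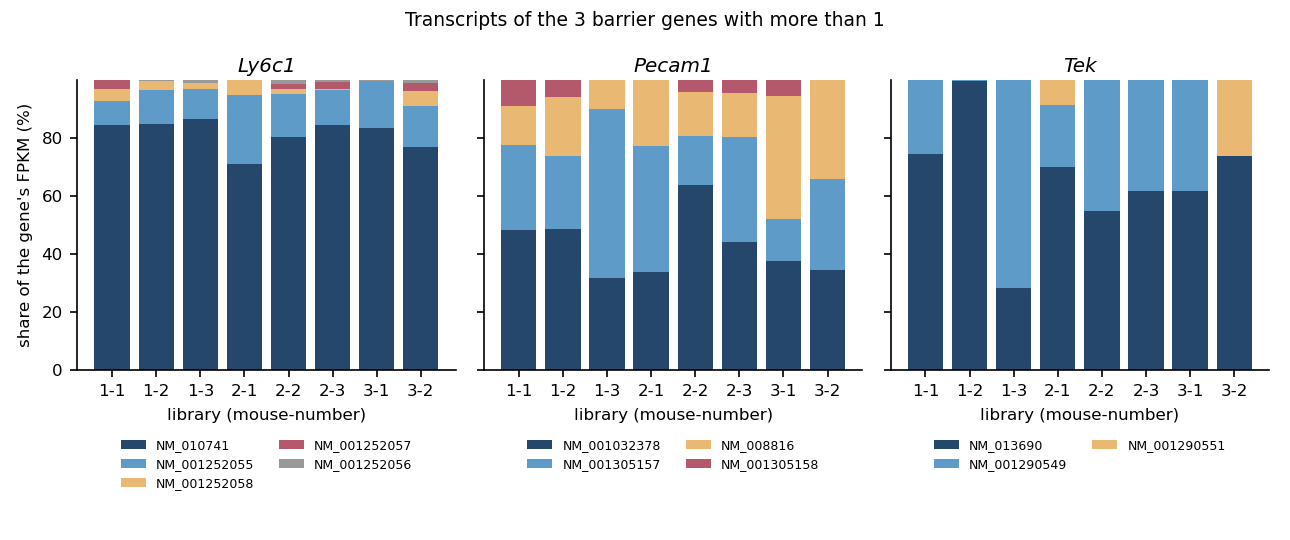
Share of each listed transcript in the FPKM of Ly6c1, Pecam1 and Tek, in percent, in the 8 libraries (mouse and library number). Bars sum to 100 within a library. NM_010741 leads in every library for Ly6c1, whereas the leading transcript changes between libraries for Pecam1 and Tek.

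Further barrier genes and close relatives of the barrier genes above were read from lists of 121 genes in all. Of these, 120 were found in the table and 98 were tested. The relatives gave 5 of the 98, and 1 of these 5, Ly6c2, differed between mice. Between mice 24 of the 98 differed (24.5%), beside 25.5% of all genes tested, and the median log2 difference over the 98 was 0.13. Of the 24, 17 were higher and 7 lower in mouse 3, beside 1835 higher and 1475 lower among all genes tested that differed. The split depended on the scaling. After scaling to TPM, which lowers the median of all genes as given above, 29 of the listed genes differed. Of these 29, 6 were higher in mouse 3, beside 718 of the 5493 that differed among all genes tested. With the length trend removed 17 of 20 were higher there, beside 1418 of 2645 among all genes tested. Counts in single lists are read beside 2645 of 13001 genes with the length trend removed and 5493 of 13001 under TPM. Medians over the lists are therefore read beside 0.02 for all genes in FPKM. Genes named from these lists are those with the highest levels and those with the smallest adjusted p among genes that differed. Whole-brain RNA does not show which cells made a listed gene, so its level or difference is not assigned to vessels.

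Of 11 junction genes 2 differed, both higher in mouse 3. Jam2, a junctional adhesion molecule, averaged 13.9, 13.9 and 21.6 FPKM in mice 1, 2 and 3 (adjusted p = 0.00699 by limma). Ocln, which encodes the tight junction protein occludin, averaged 3.14, 3.07 and 4.84 FPKM (adjusted p = 0.0157). Both still differed with the length trend removed (adjusted p = 0.00408 for Jam2 and 0.0132 for Ocln), when 4 of the 11 did. Under TPM Jam2 still differed and Ocln did not (adjusted p = 0.0471 and 0.0546 by limma). Tjp1, which encodes the scaffold ZO-1, did not pass the test at 15.0 ± 0.306 FPKM, nor did Cldn12, another claudin, at 13.8 ± 1.62 FPKM. The median log2 difference over the list was 0.26.

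Of 18 transporter genes tested 4 differed, of which 3 were higher in mouse 3. Slc40a1, the iron exporter ferroportin, averaged 3.13, 3.12 and 4.59 FPKM in mice 1, 2 and 3 (adjusted p = 0.0144 by limma). Slc39a8, a zinc and manganese importer, averaged 1.48, 1.39 and 2.14 FPKM (adjusted p = 0.0295). Abcg2, a further drug efflux pump, was also higher, with a log2 difference of 0.65 (adjusted p = 0.0404). These 3 genes still differed with the length trend removed (adjusted p = 0.00888 for Slc40a1, 0.0232 for Slc39a8 and 0.0350 for Abcg2), when 6 of the 18 did. Under TPM the calls of all 3 were lost (adjusted p = 0.208, 0.265 and 0.0952 by limma). The highest of the list were Slc3a2, the heavy chain of amino acid exchangers, at 33.6 ± 3.63 FPKM, the glutamine carrier Slc38a3 at 27.7 ± 2.27 FPKM and the transferrin receptor Tfrc at 27.0 ± 0.342 FPKM, and none of these passed the test. The median over the list was 0.09.

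Of 27 endothelial identity genes tested 8 differed, 7 higher and 1 lower in mouse 3, with a median log2 difference of 0.19. Itm2a, a membrane protein enriched in endothelium, averaged 33.6, 30.7 and 62.6 FPKM in mice 1, 2 and 3 (adjusted p = 0.00668 by limma) and still differed with the length trend removed (adjusted p = 0.00277), at a log2 difference of 0.71 beside 0.94. Ly6a, a relative of Ly6c1 known as Sca-1, averaged 18.6, 17.1 and 30.9 FPKM (adjusted p = 0.0107). Egfl7, a secreted endothelial protein, averaged 10.4, 9.20 and 15.0 FPKM (adjusted p = 0.0255), and its exons overlap those of Agpat2 on the other strand. With the length trend removed the calls of both were lost, at log2 differences of 0.28 beside 0.76 for Ly6a (adjusted p = 0.0506) and 0.20 beside 0.57 for Egfl7 (adjusted p = 0.213), and 4 of the 27 genes differed. The highest of the list, Ly6e, did not pass the test at 51.5 ± 3.74 FPKM. Under TPM Itm2a and Ly6a still differed (adjusted p = 0.00464 and 0.0126 by limma) and Egfl7 did not (adjusted p = 0.0863).

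Of 8 genes tested in a list of ligands of these receptors, their coreceptors and Angptl4, 4 differed, and they went in both directions. Vegfb, a ligand of Flt1, averaged 31.6, 29.4 and 44.4 FPKM in mice 1, 2 and 3 (adjusted p = 0.0350 by limma). Vegfa, the main endothelial growth factor, averaged 15.6, 13.5 and 11.9 FPKM (adjusted p = 0.0315). The VEGF coreceptor Nrp2 averaged 5.14, 4.92 and 3.32 FPKM (adjusted p = 0.0216), and Angptl4, an angiopoietin-like inhibitor of lipoprotein lipase, averaged 0.961, 0.812 and 2.16 FPKM (adjusted p = 0.0180). Nrp1, the other VEGF coreceptor, did not pass the test at 5.77 ± 0.659 FPKM. With the length trend removed the calls of Vegfb (adjusted p = 0.488) and Vegfa (adjusted p = 0.0807) were lost, whereas Nrp2 (adjusted p = 0.0402) and Angptl4 (adjusted p = 0.0218) still differed. The median over the list was −0.11. Under TPM Vegfa, Nrp2 and Angptl4 still differed (adjusted p = 0.00927, 0.00576 and 0.0169 by limma). Vegfb did not under TPM (adjusted p = 0.156), whereas Nrp1 did (adjusted p = 0.00624).

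Of 16 genes of the Wnt and norrin pathway, which induces and maintains the barrier, 1 differed. Ndp, which encodes norrin, averaged 4.30, 4.45 and 7.68 FPKM in mice 1, 2 and 3 (adjusted p = 0.0319 by limma). It still differed with the length trend removed (adjusted p = 0.0304), when 2 of the 16 did, and did not under TPM (adjusted p = 0.0624). Ctnnb1, which encodes β-catenin, stood at 116 ± 6.51 FPKM, the Wnt inhibitor Apcdd1 at 9.25 ± 0.647 FPKM and the norrin coreceptor Tspan12 at 8.68 ± 1.84 FPKM, and these did not pass the test. The median over the list was 0.06.

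Of 6 genes of fenestrated or caveola-rich endothelium tested, 0 had an adjusted p below 0.05 by limma, and 0 with limma's mean-variance trend, whereas 1 had an unadjusted p below 0.05. Under TPM 2 of the 6 differed, beside 5493 of all 13001 genes tested, and both were lower in mouse 3. Ehd3 stood at 21.5 ± 1.54 FPKM, the caveolin gene Cav2 at 14.4 ± 3.39 FPKM and Cavin1, listed under its older name Ptrf, at 7.24 ± 0.354 FPKM. Of 9 genes of arterial or venous endothelium tested, 4 differed, 1 higher and 3 lower in mouse 3. Hey1, an arterial transcription factor, averaged 17.5, 16.5 and 21.4 FPKM in mice 1, 2 and 3 (adjusted p = 0.0439 by limma). Nr2f2, the venous factor COUP-TFII, averaged 8.13, 8.69 and 5.84 FPKM (adjusted p = 0.0216), and Efnb2, the arterial ligand ephrin-B2, averaged 10.2, 10.8 and 7.78 FPKM (adjusted p = 0.0308). Ackr1, the venular chemokine receptor, averaged 28.9, 28.0 and 18.9 FPKM (adjusted p = 0.0359), and its exons overlap those of Cadm3 on the other strand. With the length trend removed 1 of the 9 differed, Ackr1 (adjusted p = 0.00545), and the calls of Hey1 (adjusted p = 0.0501), Nr2f2 (adjusted p = 0.0654) and Efnb2 (adjusted p = 0.0880) were lost. Under TPM Ackr1, Nr2f2 and Efnb2 still differed (adjusted p = 0.00464, 0.00710 and 0.00812 by limma) and Hey1 did not (adjusted p = 0.736). Exons of Ctnnb1, Tspan12, Nr2f2, Nrp1, Abcb1b and Cldn3 overlap other genes too. Whether the estimation used strand is not stated, so reads of these genes, and of Slc2a1 and Abcb1a, cannot be told apart from those of genes that overlap them on the other strand.

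Close relatives of the 10 genes were mostly low. Cldn1 stood at 0.881 ± 0.331 FPKM and Cldn3 at 0.150 ± 0.0776 FPKM, below Cldn5 in all libraries. Abcb4 (1.08 ± 0.0624 FPKM), Slc2a4 (0.718 ± 0.172 FPKM), Mfsd2b (0.238 ± 0.0146 FPKM) and Slco1a5 (0.221 ± 0.0907 FPKM) were low as well. The highest relatives were Slc2a3, the neuronal glucose transporter GLUT3, at 28.7 ± 3.52 FPKM beside 28.6 ± 2.27 FPKM for Slc2a1, and Cdh2, which encodes N-cadherin, at 26.8 ± 2.95 FPKM beside 3.54 ± 0.266 FPKM for Cdh5. Ly6c2, at 4.33 ± 2.18 FPKM as given above, lay between these and the low relatives. The main transcripts of Slc2a1, Cldn5, Mfsd2a, Cdh5, Flt1 and Tek shared 0 windows of 50 bases with the relatives compared. That of Slco1a4 shared 100 of 3774 windows (2.65%) with Slco1a5, 84 (2.23%) with Slco1a1 and 48 (1.27%) with Slco1a6.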

How the data were processed

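The authors aligned reads and estimated expression per transcript; the tools named per the labels are TopHat and Cufflinks with the build mm10, and versions, read length and strand setting are not given in the sources used here. Libraries were made from RNA with an integrity score above the cutoff of the study, with a Kapa mRNA HyperPrep kit. The deposited values are FPKM for 34535 transcripts, each with confidence bounds, transcript length and coverage, a depth signal not scaled to the library.

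FPKM were summed over transcripts, averaged per mouse and then over 3 mice. Mice were compared with limma 3.58.1 (R 4.3.3), moderated F-test on log2(FPKM + 1) with Benjamini-Hochberg adjustment over the 13001 genes whose mean reached 1 FPKM. Fold changes on this scale understate those of low genes. Length trends were natural splines with 5 degrees of freedom per library. A gene's length is the mean over its transcripts weighted by level. The depth per library was 1.31 to 2.02 gigabases, and no counting interval was computed because FPKM are not counts.

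The 10 genes, the lists and the rules for named genes were chosen with earlier results of these data known. Named genes are the 10 members and their transcripts, relatives with at least 0.1 FPKM, and in each list the 3 highest and up to 3 with the smallest adjusted p among those that differed. Some results that the rule selects are not reported here. Abcg2 was named after its values were seen. Older symbols were matched for Vegfd, Cavin1 and Cavin2; Ly6g was not found by symbol. Alternatives were another pseudocount, other minimum levels, TPM, removal of the length trend, the highest transcript, a mean-variance trend, the replicate block and each library left out.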

Additional observations from a re-analysis of the deposited data

Results flagged for a closer look

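Among 50 barrier and list genes examined over the 8 libraries, 6 had 1 library set apart from the others by more than Dixon's 95% limit, including 1 of the 10 barrier genes. For groups of 8 independent values chance flags about 1 in 20. That rate does not hold here, since these libraries share mice and the shift of mouse 3. Some of the genes were also named by their adjusted p. Flt1 read 10.7 FPKM in library 1 of mouse 3, and the next highest library held 7.94 FPKM. Some listed genes were highest in library 2 of mouse 3: Tspan12 with 12.8 FPKM (next 8.83), Ndp with 9.39 FPKM (next 5.98) and Cav2 with 22.5 FPKM (next 14.1). Library 1 of mouse 2 was the lowest for Ly6e, with 39.1 FPKM (next 49.6), and for Ctnnb1, with 94.9 FPKM (next 113).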

How the results depend on the processing

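The 2 libraries of mouse 3 stood apart from the others, and all tests describe these 3 animals only. Depth could not be turned into counting errors, since only FPKM and coverage were used here. When a library was left out, the count of barrier genes that differed ranged from 0 to 4, that of listed genes from 0 to 24 and that of all genes from 126 to 3873. Library 2 of mouse 3 decided most calls, and the lowest of each of these counts was found without it. Without library 1 of mouse 3 the call of Ly6c1 was lost too, but the counts of listed genes and of all genes did not fall. Either omission left mouse 3 with 1 library, assumed to vary like the others. The log2 difference of mouse 3 for Mfsd2a was 0.60 without library 1 and 0.56 without library 2. For Ly6c1 it was 0.91 and 0.80. Leaving out libraries 1, 2 and 3 of mouse 1 gave 1909, 1785 and 1671 genes and 11, 11 and 9 listed genes.

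Under TPM, 1 barrier gene and 5493 genes differed, and with a minimum of 5 FPKM 14 of 47 listed genes tested did. The barrier gene was Ly6c1 (log2 difference of mouse 3 of 0.57, F-test adjusted p = 0.0238 by limma). The log2 difference of mouse 3 turned below 0 under TPM for Slc2a1 (−0.13), Pecam1 (−0.15), Slco1a4 (−0.0019) and Tek (−0.12), and for Pecam1 with its highest transcript only (−0.19). Abcb1a, at −0.01 as reported and −0.30 under TPM, turned above 0 with the length trend removed (0.13) and ranged from −0.032 to 0.015 when a library was left out, above 0 without library 2 of any mouse. The causes were not tested. The share of the main transcript of Tek was 60.4% without library 2 of mouse 1 and 72.4% without library 3 of mouse 1.

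With the library number as a replicate block, 3 barrier genes differed, Cldn5 being added (log2 difference of mouse 3 of 0.78, F-test adjusted p = 0.0184 by limma), beside 21 listed genes and 2995 genes. Deviations of same-numbered libraries correlated by 0.0028 to 0.107 in 7 pairs, and 1 pair was over 0.1, so the numbers were not taken to pair the libraries.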
